A study of Macaca mulatta with 8 samples.

Results

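The genes described here encode the chains of collagens, laminins and integrins, measured in granulosa cells of the rhesus macaque. They were chosen by a platform symbol that starts with COL, a number and A, or with ITGA, ITGB, LAMA, LAMB or LAMC, leaving out LAMA1 and LAMB1. This gave 66 of the 14132 genes with a single symbol, of which 35 are collagen chains, 7 laminin chains, 12 integrin alpha chains and 8 integrin beta chains. The other 4 (ITGB3BP, ITGB1BP1, ITGB1BP2 and ITGBL1) are named for integrins but are not chains of one, and are described apart. The data are 8 Affymetrix arrays. The 4 PM-GC arrays are granulosa cells collected before maturation, from follicles stimulated with follicle-stimulating hormone (FSH) only, and are called before hCG here. The 4 VVM-GC arrays are granulosa cells from follicles given FSH and then human chorionic gonadotropin (hCG), the ovulatory stimulus, and matured in vivo; they are called after hCG. All groups therefore share the FSH treatment. The series design calls these mural granulosa cells, which form the follicle wall, while the source labels tie them to cumulus-oocyte complexes. Strain, age, the hours between hCG and collection, and the animal behind each array are stated in none of the labels used here. No label says that the arrays come from separate animals, so p-values measure only the spread between these arrays, which may be technical.

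Granulosa cells sit on a basement membrane, the basal lamina of the follicle, which separates them from the theca cells and the blood vessels. Its framework is a network of type IV collagen joined to laminins, each of which is a trimer of an alpha, a beta and a gamma chain. Integrins are receptors in the cell membrane made of 1 alpha and 1 beta chain, and the alpha chain largely decides whether laminin, collagen or another ligand is bound. Around ovulation the follicle wall is remodelled, vessels cross the basal lamina and the granulosa cells become luteal cells.

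Values are log2 intensities, as mean ± SD over 4 arrays, and differences are after minus before hCG on the log2 scale with their standard error (SE). Adjusted p is from limma's moderated test over all 14132 genes with Benjamini-Hochberg adjustment, and a gene passed when it was under 0.05. A gene with several probe sets is given by the one with the highest mean. Of the 66 genes, 17 passed (25.8%), against 23.8% of all genes tested, so as a group they were called about as often as genes in general. Of these 17, 6 rose (11.3% of all genes rose) and 11 fell (12.5% of all genes fell). The 11 include COL15A1 and ITGA7, for which another probe set rose. The groups did not overlap for 5 members that were higher and 14 that were lower after hCG, against 11.8% and 15.4% of all genes. With at least a 2-fold difference, 5 members rose and 8 fell, against 6.13% and 4.33% of all genes. The median difference was -0.14 over the 66 members and -0.09 over all genes. Brighter genes were called more often: 12 of the 30 members at or above the median signal of all genes passed (34.2% of all such genes), and 5 of the 36 below it (13.3%). The results below are therefore about single chains, which moved in both directions within each family except the integrin beta chains. A lower level in such bulk RNA cannot tell fewer cells of a type from less RNA per cell.

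**Figure D1:**
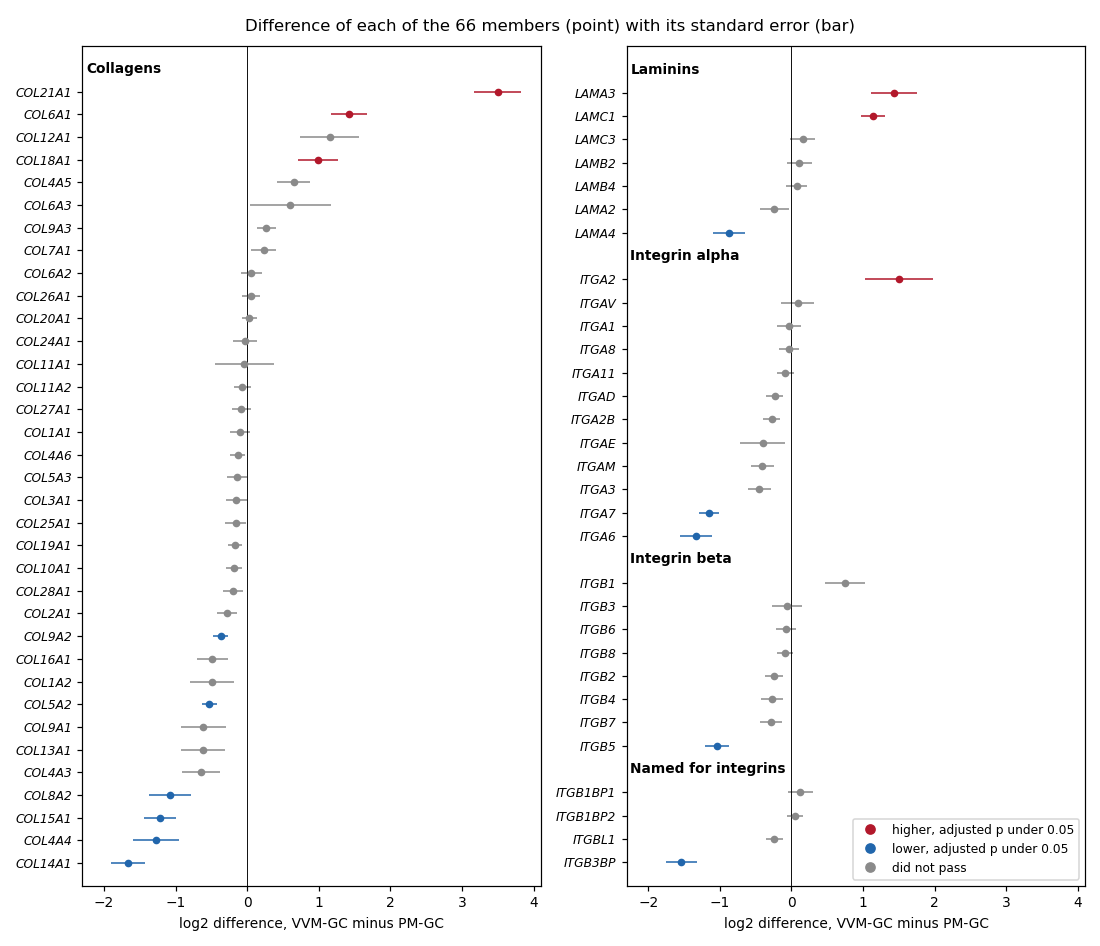
Log2 difference of each of the 66 genes, after hCG (VVM-GC) minus before hCG (PM-GC), with its standard error as a bar, sorted within each family. Most points lie near 0; COL21A1, at 3.50, stands to the right of all others, and 11 genes in blue lie to the left with an adjusted p under 0.05.

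Among the laminins, the gamma chain LAMC1 and the alpha chain LAMA3 rose and the alpha chain LAMA4 fell, while 4 of 7 chains did not pass. LAMC1 encodes the gamma chain found in most laminin trimers, including those of the follicular basal lamina. It read 10.10, 10.41, 10.27 and 10.13 on the arrays before hCG and 11.28, 10.94, 11.58 and 11.67 after hCG. All arrays after hCG were above all arrays before it, and the 2.20-fold rise (1.14, SE 0.17, adjusted p = 0.00107) was larger than the spread within either group (10.23 ± 0.14 and 11.37 ± 0.33, SD, n = 4). LAMA3 encodes an alpha chain known from the anchoring laminin of epithelia. It went from 6.51, 5.88, 6.63 and 6.81 to 7.68, 7.95, 8.76 and 7.15, with no overlap (1.43, SE 0.32, adjusted p = 0.0105). The other 3 probe sets of LAMA3 lay between -0.07 and 0.13 and did not pass, and the average of all 4 differed by 0.36 (adjusted p = 0.104), so this rise rests on a single probe set. LAMA4, an alpha chain typical of vessel walls, went from 7.66, 7.11, 6.80 and 7.35 to 6.84, 6.08, 6.10 and 6.42. The groups touched, since array 1 after hCG stood above array 3 before it. The fall of LAMA4 was 0.87 (SE 0.22, adjusted p = 0.018). Leaving out array 4 before hCG ended the call (adjusted p = 0.0516), as did leaving out array 2 after hCG (adjusted p = 0.0511). Its second probe set differed by 0.03, and averaging both gave a fall of 0.42. The beta chain LAMB2 was at 9.50 ± 0.35 and 9.61 ± 0.16 (difference 0.11, 95% interval -0.29 to 0.50). LAMA2, the alpha chain of muscle and nerve sheaths, was at 6.10 ± 0.24 and 5.85 ± 0.38 (difference -0.24, 95% interval -0.69 to 0.21). LAMB4 and LAMC3 differed by 0.07 and 0.15.

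COL4A1, COL4A2, COL5A1, LAMA5, LAMB3, ITGA5 and ITGA9 are not analysed here. Of the 4 measured chains of type IV collagen, the network-forming collagen of basement membranes, COL4A4 fell and the others did not pass by their brightest probe set. COL4A4 joins COL4A3 and COL4A5 in a trimer best known from the kidney and inner ear. It read 10.03, 8.81, 9.83 and 8.85 before hCG and 8.05, 7.67, 8.73 and 7.99 after hCG. Arrays 1 and 3 were the high ones before hCG, and even the lowest array before hCG stood above the highest one after it. The fall was 2.42-fold (difference -1.27, SE 0.32, adjusted p = 0.0181), and its second probe set differed by -1.15 (SE 0.37, adjusted p = 0.0707 over all probe sets). Leaving out array 3 before hCG (adjusted p = 0.0544) or array 2 after hCG (adjusted p = 0.0504) ended the call. COL4A3 is the next protein-coding gene to COL4A4 in the RefSeq annotation of the rhesus assembly T2T-MMU8v2.0. It went from 7.23, 6.21, 6.29 and 6.63 to 5.86, 5.40, 6.27 and 6.26, a difference of -0.65 that did not pass (SE 0.26, adjusted p = 0.108). COL4A5, the third partner, differed the other way by its brightest probe set, from 9.11 ± 0.40 to 9.76 ± 0.37 (0.65, 95% interval 0.12 to 1.17, adjusted p = 0.0749). It passed without array 3 after hCG (adjusted p = 0.0436). Its second probe set differed by -0.08, and averaging both gave 0.29 (adjusted p = 0.0663). Whether COL4A5 differs from its partners in its response was not tested.

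The multiplexins COL15A1 and COL18A1, basement membrane collagens that carry sugar chains and whose end fragments are known to inhibit vessel growth, both passed in opposite directions by their brightest probe sets. COL18A1 read 9.95, 9.48, 8.47 and 9.07 before hCG and 10.14, 10.20, 9.99 and 10.59 after hCG, so the arrays after hCG were all higher and closer together. The rise was 1.98-fold (0.99, SE 0.28, adjusted p = 0.0319), near the threshold. The call ended in 5 of the 8 fits that drop an array: 3 or 4 before hCG (adjusted p = 0.0559, 0.0849), then 1, 2 or 4 after hCG (adjusted p = 0.0589, 0.0629, 0.0764). It also ended after repeated quantile normalization (adjusted p = 0.068), with 32 added to each intensity before the log (adjusted p = 0.0504) and when its 2 probe sets were averaged (0.31, adjusted p = 0.149). COL15A1 read 10.40, 9.40, 9.98 and 10.14 before hCG and 8.99, 8.56, 9.05 and 8.46 after hCG on its brightest probe set, a fall of 1.22 (SE 0.23, adjusted p = 0.00371). Its second probe set moved the other way, as described below, so no single direction can be given for this gene.

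Type VI collagen forms beaded filaments at the edge of basement membranes, from chains encoded by COL6A1, COL6A2 and COL6A3. COL6A1 rose, from 6.90, 7.0, 6.59 and 7.01 to 8.90, 7.78, 8.63 and 7.85. Arrays 1 and 3 after hCG were the highest, and all arrays after hCG lay above those before it (1.42, SE 0.25, adjusted p = 0.00295). Its other 2 probe sets differed by 0.01 and 0.14, and averaging all 3 gave a rise of 0.52. The neighbouring COL6A2 was at 6.63 ± 0.24 and 6.69 ± 0.19 (difference 0.06, 95% interval -0.28 to 0.40). COL6A3 varied widely within both groups, at 11.89, 9.92, 12.11 and 11.27 before hCG and 11.68, 10.60, 12.87 and 12.46 after hCG. Its difference of 0.60 was smaller than the SD of either group (0.98 and 1.0), and the interval of -0.66 to 1.87 leaves a change of either sign possible.

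Fibrillar collagens give tissues their tensile strength. Of 10 measured chains, 1 fell and 9 did not pass, and the 10 differences lay between -0.53 and -0.03. The major stromal chains were COL1A1 at 5.47 ± 0.20 and 5.36 ± 0.19 (difference -0.10, 95% interval -0.42 to 0.21), COL1A2 at 7.84 ± 0.46 and 7.35 ± 0.58 (-0.49, 95% interval -1.18 to 0.20) and COL3A1 at 6.79 ± 0.22 and 6.64 ± 0.20 (-0.15, 95% interval -0.49 to 0.18). None of these 3 passed, and in each the groups overlapped. COL5A2, a chain of the type V collagen that starts fibrils, was the one that fell: it read 11.62, 11.88, 11.72 and 11.68 before hCG and 11.14, 11.27, 11.26 and 11.12 after hCG. Both groups were tight (SD 0.11 and 0.08) and did not overlap, so a 1.44-fold fall passed (difference -0.53, SE 0.10, adjusted p = 0.00532). Its other 3 probe sets differed by -0.03, 0.82 and 0.74, none of which passed, and the average of all 4 was 0.25 in the other direction (adjusted p = 0.47).

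Fibril-associated collagens sit on the surface of fibrils and link them to other matrix. Of 9 measured chains, COL21A1 rose, COL14A1 and COL9A2 fell and 6 did not pass. COL21A1 showed the largest difference of all 66 members. It read 3.81, 3.58, 3.64 and 3.45 before hCG and 8.15, 6.36, 7.25 and 6.71 after hCG, with every array after hCG above those before it. The 11.3-fold rise (3.50, SE 0.33, adjusted p = 8.14e-05) starts from a low signal, and with 32 added to each intensity before the log it was 1.97. COL14A1, which regulates fibril growth, read 7.24, 6.98, 7.45 and 7.59 before hCG and 5.73, 5.66, 6.19 and 5.03 after hCG, without overlap (difference -1.66, SE 0.23, adjusted p = 0.000805). A second of its 4 probe sets fell too (-0.66, adjusted p = 0.0371 over all probe sets) and the other two differed by 1.10 and -0.21, so that their average did not pass (-0.36, adjusted p = 0.136). COL9A2 fell by 0.37 (SE 0.10, adjusted p = 0.0281), from 7.15 ± 0.10 to 6.78 ± 0.08. That call ended in 6 of the 8 fits that drop an array: 1, 2 or 4 before hCG (adjusted p = 0.078, 0.0617, 0.0669), then 1, 3 or 4 after hCG (adjusted p = 0.0652, 0.0563, 0.0576). COL12A1, a collagen of tissues under mechanical load, read 7.58, 6.60, 6.46 and 6.51 before hCG and 7.04, 7.41, 8.87 and 8.43 after hCG. Array 1 was the high one before hCG and the low one after it, and the difference of 1.15 did not pass (SE 0.41, adjusted p = 0.0722). Dropping array 1 before hCG gave 1.41 (adjusted p = 0.0412), and dropping array 1 after hCG gave 1.45 (adjusted p = 0.0288). COL16A1 differed by -0.49 (adjusted p = 0.143) and COL9A1, which encodes the partner chain of COL9A2, by -0.61 (adjusted p = 0.195); COL16A1 passed when array 1 after hCG was dropped (adjusted p = 0.034).

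The remaining collagens gave 1 call. COL8A2, a short-chain collagen of specialised basement membranes such as that of the cornea, read 4.84, 6.11, 6.22 and 5.31 before hCG and 4.69, 4.29, 4.79 and 4.38 after hCG. Array 1 before hCG lay just above the arrays after hCG, and the other three lay well above them. The fall of 1.08 (SE 0.29, adjusted p = 0.024) started from a signal below the median of the genes, and adding 32 to each intensity ended the call (difference -0.58, adjusted p = 0.0564). Dropping 1 array ended it 4 times: 2 or 3 before hCG (adjusted p = 0.0642, 0.0618), then 2 or 4 after hCG (adjusted p = 0.063, 0.0551). COL10A1, the transmembrane collagens COL13A1 and COL25A1, and COL7A1, COL26A1 and COL28A1 did not pass, with differences between -0.62 and 0.23. COL13A1 passed when its 2 probe sets were averaged (-0.56, adjusted p = 0.0401); its difference of -0.62 was -0.35 when array 1 before hCG was dropped. Over all 35 collagen chains, 3 rose, 6 fell and 26 did not pass. That is 25.7% called, against 23.8% of all genes, and the median difference was -0.14, against -0.09 over all genes.

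**Figure D2:**
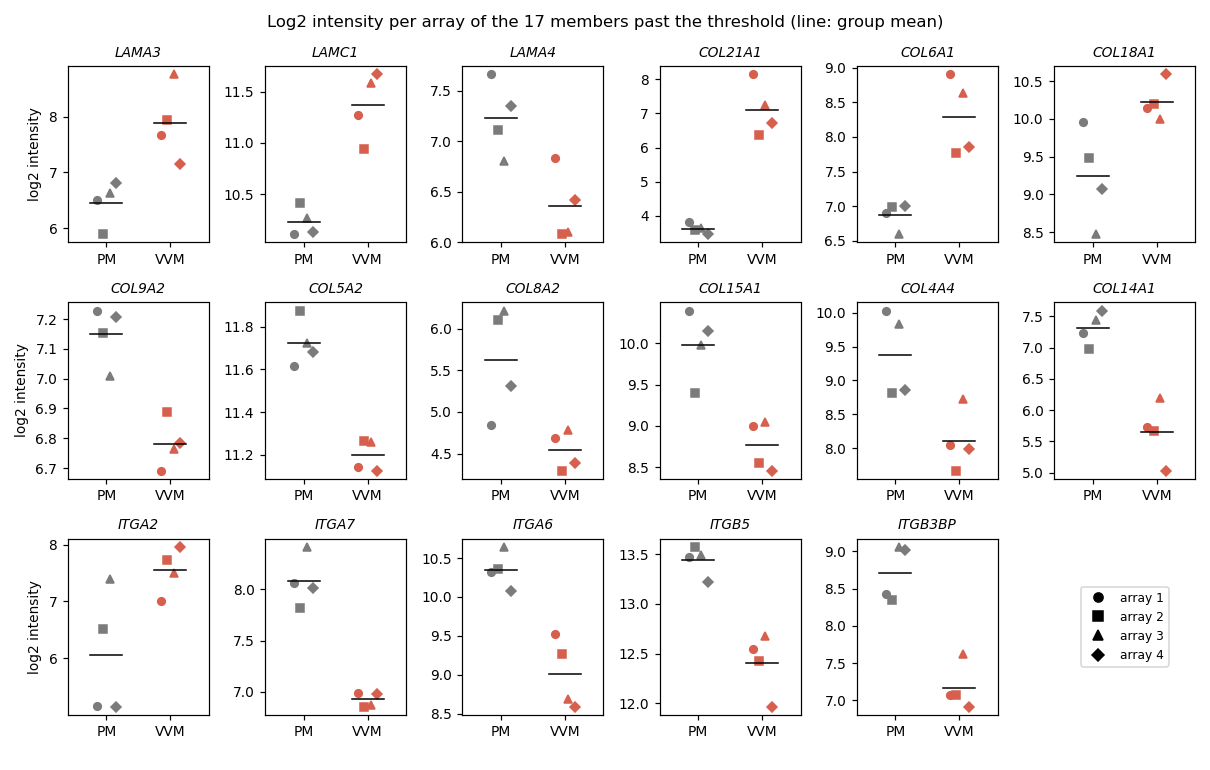
Log2 intensity on each array, before (PM, grey) and after (VVM, red) hCG, of the 17 genes with an adjusted p under 0.05; marker shape gives the array number and the line the group mean. The groups overlap in the panels of ITGA2 and LAMA4 and are separate in the other 15.

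The integrin alpha chains are ordered here by ligand. ITGA3, ITGA6 and ITGA7 pair with beta chains to form the main laminin receptors, and all of them read lower after hCG by their brightest probe set. ITGA6 read 10.32, 10.36, 10.65 and 10.08 before hCG and 9.52, 9.27, 8.68 and 8.59 after hCG. The groups were well apart, and the 2.52-fold fall (difference -1.33, SE 0.22, adjusted p = 0.002) was shared by 2 of its other 3 probe sets (-1.39 and -2.16, adjusted p = 0.0278 and 0.000232 over all probe sets), while the third differed by -0.04. ITGA7 read 8.07, 7.82, 8.42 and 8.01 before hCG and 6.99, 6.85, 6.87 and 6.98 after hCG, a fall of 1.15 (SE 0.14, adjusted p = 0.00029), but another of its 3 probe sets rose. Over all 8 arrays these probe sets were almost equally bright, with means of 8.08 and 6.08 before hCG and 6.93 and 8.91 after it. The choice between them sets the sign, so no single direction can be given for ITGA7. ITGA3 read 7.36, 7.70, 6.99 and 6.99 before hCG and 6.86, 6.75, 6.79 and 6.83 after hCG. Its groups did not overlap, and the difference of -0.45 did not pass (SE 0.16, adjusted p = 0.0798).

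ITGA2 was the only integrin chain that rose by its brightest probe set in this fit. It encodes a receptor for collagen known from platelets and epithelia. ITGA2 read 5.15, 6.51, 7.39 and 5.14 before hCG and 7.01, 7.74, 7.51 and 7.97 after hCG. The arrays before hCG spread over more than the difference itself, and array 3 before hCG stood above array 1 after hCG. The rise of 1.51 (SE 0.48, adjusted p = 0.0458) was just past the threshold. When 1 array was dropped, it passed only where that was array 3 before hCG. Dropping array 1, 2 or 4 before hCG gave adjusted p of 0.115, 0.0575 and 0.122, and dropping any array after hCG gave 0.0518 to 0.0999. The call also ended with both probe sets averaged (1.07, adjusted p = 0.083), with 32 added (adjusted p = 0.069), with a trended and robust limma fit (adjusted p = 0.0555) and with p adjusted over all probe sets (0.0613). The second probe set of ITGA2 differed by 0.64 (adjusted p = 0.288 over all probe sets). It was the brighter one before hCG (6.43 against 6.05) and the dimmer one after hCG (7.07 against 7.56). The probe set used is therefore the brightest only through the arrays after hCG. The other collagen receptors ITGA1 and ITGA11 were at 5.01 ± 0.33 and 4.98 ± 0.13, and at 6.25 ± 0.08 and 6.17 ± 0.17. Among the chains that bind the RGD motif of fibronectin and related proteins, ITGAV was at 8.14 ± 0.26 and 8.22 ± 0.48 (difference 0.08, 95% interval -0.44 to 0.61). The platelet chain ITGA2B differed by -0.28 and ITGA8 by -0.04. The second probe set of ITGA8 read higher after hCG without overlap (1.12, adjusted p = 0.0701 over all probe sets), and averaging both gave 0.54 (adjusted p = 0.0614). The leukocyte chains ITGAD, ITGAE and ITGAM differed by -0.23, -0.40 and -0.41 and did not pass; ITGAE varied with array 2 before hCG, which read 7.97 against 9.07 to 9.49, and passed without it (-0.72, adjusted p = 0.0407).

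Of 8 beta chains, ITGB5 fell and the other 7 did not pass. In limma's test none rose, with 1 higher at an unadjusted p under 0.05 and none with the trended and robust fit. ITGB5 pairs with ITGAV in a receptor for vitronectin. It read 13.47, 13.58, 13.49 and 13.22 before hCG and 12.55, 12.42, 12.68 and 11.96 after hCG. The highest array after hCG was below the lowest one before it, and the fall of 1.04 (SE 0.16, adjusted p = 0.00151) was repeated by its second probe set (-2.45, SE 0.29, adjusted p = 0.00036 over all probe sets). That probe set read 9.77, 9.77, 9.57 and 9.07 before hCG and 7.84, 6.94, 7.23 and 6.37 after hCG, and averaging both gave a fall of 1.74. Among the called genes with several probe sets, ITGB5 was the one for which each probe set passed in the same direction. ITGB1, the common partner of the laminin and collagen receptor chains, read 9.98, 10.11, 10.38 and 10.86 before hCG and 10.40, 11.17, 11.74 and 10.99 after hCG. Array 1 after hCG was the low one, the groups overlapped, and the difference of 0.74 did not pass (SE 0.28, adjusted p = 0.0881); without array 1 after hCG it was 0.97 (adjusted p = 0.0264). The other partners of ITGAV were close in both groups, with ITGB3 at 7.03 ± 0.32 and 6.97 ± 0.37 and differences of -0.07 for ITGB6 and -0.09 for ITGB8. None of the 8 probe sets of ITGB3 passed. ITGB4, the partner of ITGA6 at epithelial anchoring junctions, differed by -0.27 (adjusted p = 0.25), and the leukocyte chains ITGB2 and ITGB7 by -0.25 and -0.29. By their brightest probe sets, 1 of all 20 integrin chains rose, 3 fell (ITGA7 among them) and 16 did not pass. That is 20.0% called, against 23.8% of all genes, and the median difference was -0.24, against -0.09 over all genes.

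Of the 4 genes only named for integrins, ITGB3BP fell. It encodes a protein of the centromere that was first found through its binding to an integrin tail. ITGB3BP went from 8.43, 8.34, 9.06 and 9.02 to 7.07, 7.07, 7.63 and 6.92, without overlap (2.91-fold, difference -1.54, SE 0.22, adjusted p = 0.000764). ITGB1BP1, which binds the tail of ITGB1, ITGB1BP2 and ITGBL1 differed by 0.12, 0.05 and -0.24 and did not pass.

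Probe sets of the same gene disagreed often enough to bear on these calls. Of the 132 probe sets of the 66 genes, 8 rose and 15 fell with p adjusted over all probe sets (17.4% called, against 14.1% of all probe sets). Of the 17 called genes, 5 have 1 probe set (COL21A1, COL8A2, COL9A2, LAMC1 and ITGB3BP) and 12 have several. Among those 12, another probe set passed in the same direction for COL14A1, ITGA6 and ITGB5, another passed in the opposite direction for COL15A1 and ITGA7, and no other passed for the remaining 7. The second probe set of COL15A1 read 4.44, 3.74, 4.39 and 3.92 before hCG and 6.33, 8.45, 8.06 and 8.38 after hCG, a rise of 3.68 (SE 0.42, adjusted p = 0.000326 over all probe sets). It was the largest difference of any of the 132 probe sets, and array 1 was its low one after hCG. For ITGA7 the opposing probe set read 6.22, 5.81, 5.87 and 6.41 before hCG and 8.76, 9.26, 9.12 and 8.52 after hCG. That rise of 2.83 (SE 0.19, adjusted p = 1.71e-05) is larger than the fall of the brightest probe set, and the third probe set differed by 0.27 (adjusted p = 0.356). Of the 26 members with several probe sets whose brightest did not pass, COL4A6 alone had another that did. That probe set read 4.87, 5.12, 5.02 and 4.71 before hCG and 6.42, 5.98, 6.32 and 6.75 after hCG (1.44, SE 0.17, adjusted p = 0.000337), while the brightest was at 7.22 ± 0.12 and 7.08 ± 0.08. With all probe sets averaged, COL15A1 rose by 1.23, ITGA7 by 0.65 and COL4A6 by 0.65, and all 3 passed. Which transcript part or transcript each probe set reads was not tested.

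**Figure D3:**
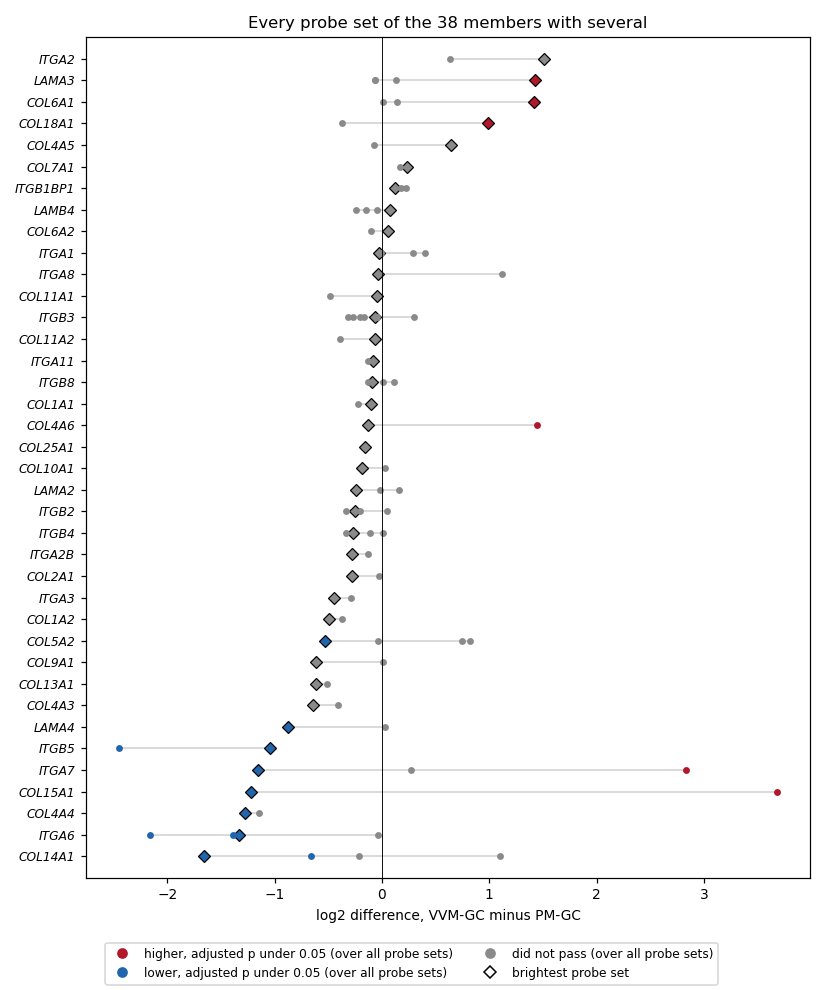
Log2 difference of every probe set of the 38 genes that have several, with the brightest as a diamond and the calls adjusted over all probe sets. Grey lines join the probe sets of a gene; those of COL15A1 run from -1.22 to 3.68 and those of ITGA7 from -1.15 to 2.83, with a call at both ends.

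**Figure D4:**
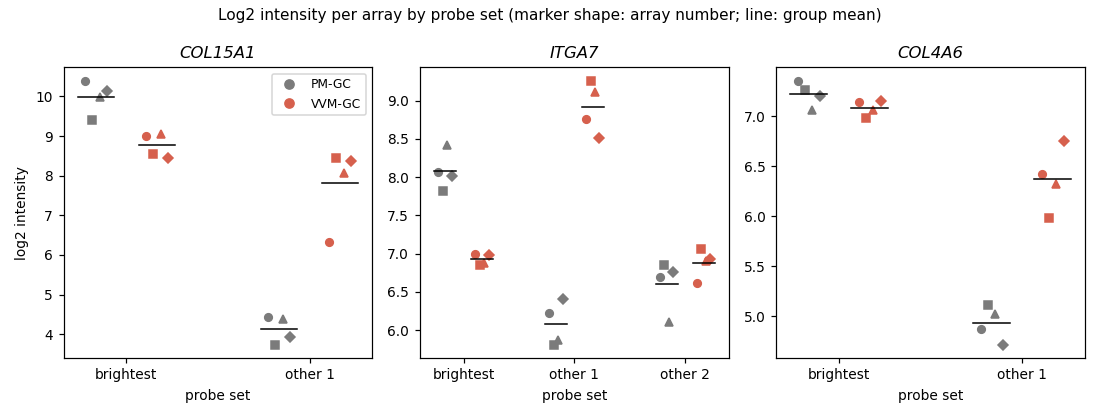
Log2 intensity on each array before (grey) and after (red) hCG for every probe set of COL15A1, ITGA7 and COL4A6; marker shape gives the array number and lines the group means. The brightest probe set of COL15A1 and of ITGA7 is lower after hCG and another probe set is higher, with no overlap between the groups in either.

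Genes that build collagens or connect integrins to the cell skeleton were taken from 5 lists. The background for each count that follows is that 11.3% of all genes rose and 12.5% fell. In either direction, 34.2% of genes at or above the median signal were called and 13.3% of those below it. The lists hold genes of both kinds: the median signal of the other basement membrane list (6.55) was below that of all genes (6.89), and those of the other lists were above it. Of 26 measured genes of collagen assembly and crosslinking, 8 rose, 18 did not pass and the median was 0.38. None fell in limma's test, where 3 were lower at an unadjusted p under 0.05 and none by the trended and robust fit. PCOLCE2, which enhances the trimming of procollagen, read 6.21, 6.40, 5.75 and 6.26 before hCG and 10.72, 10.87, 11.55 and 10.18 after hCG (4.68, SE 0.27, adjusted p = 4.56e-06). LOX, which crosslinks collagen and elastin, rose by 3.06 (SE 0.79, adjusted p = 0.0196). Array 1 before hCG read 9.70 for LOX, above the 9.47 and 9.64 of arrays 1 and 2 after hCG; dropping array 2, 3 or 4 before hCG ended the call (adjusted p = 0.055, 0.0542, 0.0588), and averaging its 3 probe sets gave 1.83. Its relative LOXL1 rose by 1.89 (SE 0.27). Of 14 other basement membrane proteins, 4 rose, 1 fell and 9 did not pass (median 0.29). EFEMP1, a fibulin, rose by 5.17 (SE 0.34, adjusted p = 9.46e-06; 2.95 for the average of 2 probe sets), PAPLN, papilin, by 2.93 (SE 0.64; average 1.46) and NPNT, nephronectin, by 2.60 (SE 0.56; average 1.33, and 1.72 with 32 added). HSPG2, the basement membrane proteoglycan perlecan, fell by 0.78 (SE 0.16, adjusted p = 0.00663).

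Among 7 non-integrin receptors of collagen and laminin, 2 rose, 2 fell and 3 did not pass (57.1% called). The proteoglycan SDC1 rose by 1.75 (SE 0.26) and its relative SDC3 fell by 1.76 (SE 0.22), or by 0.58 with its 2 probe sets averaged. DAG1, the laminin receptor dystroglycan, fell by 0.87 (SE 0.13), from 11.56, 11.66, 11.60 and 11.31 to 10.73, 10.50, 10.90 and 10.52. DDR2, a receptor kinase that binds fibrillar collagen, rose by 0.56 (SE 0.14, adjusted p = 0.0197). Dropping array 3 or 4 before hCG (adjusted p = 0.0545, 0.0511) or array 1 or 2 after hCG (adjusted p = 0.0517, 0.0554) ended that call and left 1 gene of this list that rose. With 32 added, the difference of DDR2 was 0.35. Of 27 genes of the adhesion machinery behind integrins, 9 rose, 1 fell and 17 did not pass (37.0% called, median 0.20). The number that rose was 6 by the trended and robust fit, and 6 to 9 when 1 array was left out. TNS3, a tensin that binds integrin tails, rose by 2.25 (SE 0.22), FERMT2, the integrin activator kindlin-2, by 1.91 (SE 0.16, adjusted p = 4.24e-05) and LIMS1, which joins the integrin-linked kinase complex, by 1.32 (SE 0.21). VASP, an actin regulator with 6 probe sets, fell by 0.87 by the brightest, and the average of all 6 did not differ measurably (0.0024, adjusted p = 0.987). Of 15 other integrin ligands, 3 rose, 1 fell and 11 did not pass (26.7% called). SPP1, osteopontin, rose by 1.31 (SE 0.29), THBS1, thrombospondin, by 1.15 (SE 0.19) and ADAM15 by 0.42 (SE 0.13, adjusted p = 0.0455), and VCAM1, the ligand of leukocyte integrins, fell by 1.32 (SE 0.37, adjusted p = 0.0296). When 1 array was dropped, ADAM15 passed for array 2 before hCG and array 4 after hCG, and had adjusted p of 0.0595 to 0.12 for the other 6. Averaging its 2 probe sets gave 0.09 (adjusted p = 0.501), and quantile normalization, the trended and robust fit and adjustment over all probe sets ended the call too (adjusted p = 0.0543, 0.0557, 0.0604). Dropping array 1, 3 or 4 before hCG (adjusted p = 0.0583, 0.0794, 0.0792) or array 3 after hCG (adjusted p = 0.0575) ended the call of VCAM1, as did 32 added (adjusted p = 0.0512).

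**Figure D5:**
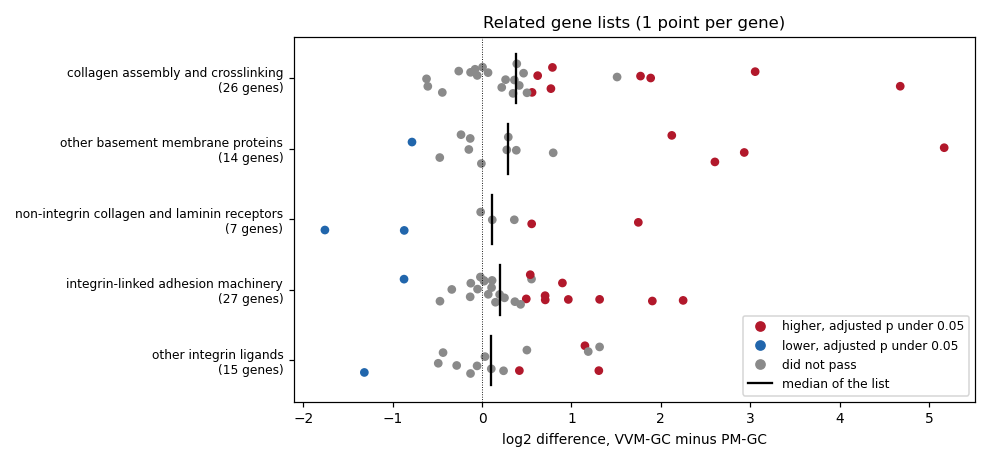
Log2 difference of each measured gene of the 5 lists, with list medians as black lines. Medians lie between 0.10 and 0.38; the points past 4 are PCOLCE2 and EFEMP1.

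Marker lists of cell types were read in the same fit, where 11.3% of all genes rose and 12.5% fell. Of 8 measured granulosa markers, 7 fell (AMH, AMHR2, INHA, INHBA, CYP19A1, HSD17B1 and NR5A2) and 1 did not pass (FST). Their summed intensity was 34656 to 42567 before hCG and 20146 to 24306 after hCG. INHA made up 42.9% to 57.6% of it, and the rest summed to 18010 to 23962 before and 9211 to 11733 after hCG. Fewer granulosa cells and less of these RNAs per cell cannot be told apart here. Of other types, none of 11 endothelial, 5 platelet or 6 oocyte markers passed in limma's test, nor by the trended and robust fit. At an unadjusted p under 0.05, 1 endothelial marker was higher and 1 lower, and no platelet or oocyte marker was either. The endothelial markers summed to 608 to 721 before and 584 to 1141 after hCG. VWF varied most among them, at 9.10, 6.80, 5.88 and 7.58 on arrays 1 to 4 after hCG (difference 1.26, adjusted p = 0.138). Without VWF the sums were 554 to 652 and 525 to 593. Of 8 markers of theca and stroma, which make much of a tissue's collagen, 2 fell (CYP17A1 and DPT) and 6 did not pass. Their summed intensity was 90.5% to 96.1% MFAP5, and the other 7 summed to 415 to 465 before hCG and to 865, 368, 932 and 601 on arrays 1 to 4 after hCG. DCN, decorin, differed the other way from the pair that fell, from 8.05 ± 0.11 to 8.97 ± 0.83 (0.92, adjusted p = 0.0844). Of 8 leukocyte markers 1 fell: CSF1R, a receptor of macrophages, which made up 38.6% to 63.3% of their summed intensity before hCG. The other 7 did not pass and differed in both directions (CD68 by 0.84, adjusted p = 0.0502, and PTPRC by -0.49). By the trended and robust fit, 1 leukocyte marker rose and 1 fell. Without CSF1R they summed to 514 to 929 before hCG and to 1078, 1080, 323 and 1009 on arrays 1 to 4 after hCG. Array 3 after hCG thus stood apart, below all others; when it was dropped, 6 members of the collagen, laminin and integrin families rose and 10 fell. Of 7 surface epithelium markers 2 rose (KRT18 by 2.25 and KRT19 by 1.32) and 5 did not pass. Those 5 differed in both directions (UPK3B by -0.31, KRT7 by -0.22, MSLN by -0.06, KRT8 by -0.05 and EPCAM by 0.48). All 7 summed to 728 to 909 before and 957 to 1557 after hCG. Without KRT19 the sums were 575 to 672 and 767 to 1016, with KRT18 still among them. Of 5 smooth muscle markers 1 rose (TAGLN). All 5 summed to 578 to 1334 before and 625 to 864 after hCG. MYH11 read 9.90 on array 1 before hCG, against 7.30, 8.24 and 7.90 on arrays 2 to 4, and made up as much as 71.7% of the sum. The table holds no detection calls, so no marker can be called absent, and the part of these cell types in the differences of collagen, laminin and integrin chains was not tested. The arrays' median log2 intensities ran from 5.44 to 5.54. Over all probe sets, pairs of arrays before hCG correlated at 0.984 to 0.988 (Pearson), pairs after hCG at 0.974 to 0.984 and pairs across the groups at 0.935 to 0.957.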

How the data were processed

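Total RNA was purified, amplified linearly and hybridised to 8 Affymetrix rhesus arrays, 4 per group, per the labels' protocols. The deposited table holds intensity values that the authors made with Affymetrix Expression Console and RMA, per the submitters' processing notes; no version of either is stated in those notes. The values are linear, so log2 was taken and nothing else was changed. Of 52865 rows, 99 controls were left out. Of the 52766 probe sets, GEO's platform annotation names 1 gene for 24956, more than 1 for 361 and no gene for 27449. The gene IDs of 24616 were found in the RefSeq table, and no symbol changed. For each of 14132 genes the brightest probe set was kept, by its mean log2 over all arrays.

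Groups were compared with limma 3.58.1 (lmFit, eBayes) in R 4.3.3 over all genes, and over all probe sets for calls of single probe sets. The procedure was tested on simulated independent values with fewer changed genes than were called here. That cannot show whether the arrays of this series are independent. The members and gene lists were chosen with earlier results of these data known. Values are given in full for members past the threshold and for 22 of 30 listed index members that were measured; of each related list, up to 3 genes per direction, by size. Marker lists are given by counts and sums. A further 9 members were named after their values were seen (COL4A3, COL6A2, COL6A3, COL9A1, COL12A1, COL13A1, COL16A1, ITGAE and ITGB4), as were the markers given by name and the marker sums without the brightest gene. The number of arrays limits the precision. Alternatives were the average of a gene's probe sets, probe sets tested singly, 32 added to each intensity, repeated quantile normalization, median centring, a filter on low signals, the replicate number as a block, a trended and robust limma fit, and leaving out each array.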

Additional observations from a re-analysis of the deposited data

Results flagged for a closer look

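In 116 groups of 4 arrays (58 named genes in both groups), 5 had an array whose gap to the next one took more of the group's range than Dixon's 95% limit for 4 values. Chance marks about 1 in 20 groups. COL12A1 read 7.58 on array 1 before hCG, against 6.46 to 6.60 on the other three. COL6A2 read 6.41 on array 1 after hCG, against 6.77 to 6.80. DDR2 read 5.74 on array 3 after hCG, against 6.14 to 6.22. LIMS1 read 9.41 on array 4 after hCG, against 8.71 to 8.77. SDC1 read 11.15 on array 2 after hCG, against 11.94 to 11.97.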

How the results depend on the processing

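The counts of members that rose (6) and fell (11) stayed within 1.5 times under the 8 other settings and when each of the 8 arrays was left out, which gave 4 to 6 and 8 to 11. The genes behind the counts changed more. With probe sets averaged, 14 members were called, 12 of them among the 17, but COL15A1 and ITGA7 then passed in the opposite direction. COL14A1, COL18A1, COL5A2, ITGA2 and LAMA3 were lost, and COL13A1 and COL4A6 were gained. Of the 17 called members, 11 kept their call without any 1 array. With the replicate block, 17 members were called, 16 of them shared: COL9A2 was lost (adjusted p = 0.0659) and COL9A1 gained (adjusted p = 0.0486), and the calls of VCAM1 and ADAM15 were lost (adjusted p = 0.0686 and 0.11). Same-numbered arrays deviated together by correlations of -0.026 to 0.165, and 2 of 8 correlated best with their own number, so the numbers were not taken as pairs. With probe sets averaged, differences turned sign for COL15A1 (1.23), ITGA7 (0.65), COL4A6 (0.65), COL5A2 (0.25), ITGA1 (0.16), COL6A2 (-0.021) and VASP (0.0024). Quantile normalization turned ITGA1 (0.022), ITGAV (-0.0068) and LAMB2 (-0.035), and median centring turned ITGA1 (0.011). Leaving out 1 array gave -0.13 to 0.090 for ITGA1, -0.071 to 0.25 for ITGAV, -0.21 to 0.087 for ITGB3 and -0.015 to 0.17 for COL6A2. The filter on low signals tests fewer genes, those with a mean over all arrays at or above the median of 6.89. Of the laminins it keeps only LAMA3, LAMB2 and LAMC1, with a median of 1.14. LAMA3 (6.46 before and 7.89 after hCG) stays only through its arrays after hCG, and LAMA4, which fell, is dropped. That median therefore reflects the filter. With it, 1 gene rose in each of the other basement membrane and receptor lists. Collagen assembly genes that fell numbered 1 with averaging, 32 added, quantile normalization or the block, 2 with probe sets tested singly, and 0 to 1 without 1 array. Adhesion genes that fell numbered 0 with averaging. Integrin ligands that fell numbered 0 with 32 added or the block, and 0 to 2 without 1 array; receptors that rose numbered 1 to 2. The cause was not tested. Signals near background compress differences, and no detection calls were used.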
